A study of Mus musculus with 6 samples.

Results

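Plasmacytoid dendritic cell identity genes were followed on 6 arrays of cells grown from mouse embryonic stem cells (ESCs). The 7 genes were Siglech, Bst2, Ly6d, Irf8, Spib, Runx2 and Pacsin1, picked by symbol with their genotype values on these arrays already known. Of the 7 genes 6 had at least 1 probe set annotated to that symbol alone, 8 probe sets in all, out of 18193 genes represented in that way. No probe set was annotated to Runx2 alone, and that gene was not analysed here. A gene is represented by its brightest probe set over the 6 arrays, and the other probe sets of Irf8 and Pacsin1 are shown beside it.

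The study set 3 arrays labelled Gata3+/-, with 1 disrupted copy of Gata3, against 3 labelled Gata3-/-, with no intact copy. Both groups came from ESCs kept in ES medium, then co-cultured with OP9 and with OP9-DL1, a mouse stromal line and its derivative that presents the Notch ligand DL1. Both received IL-7 and Flt3L. The sorted cells are described as ESC-derived T-cell progenitors. The labels name neither their sort markers, nor how many ESC clones stand behind a genotype, nor the disrupted part of Gata3. Replicates are called biological, without a statement of separate cultures, so any p-value measures the spread between these arrays. Levels are log2 intensities after GC-RMA, and a group's level is its mean ± SD (n = 3 arrays). A difference is the Gata3-/- mean minus the Gata3+/- mean, with its standard error (SE). Levels of different probe sets cannot be set against each other.

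Plasmacytoid dendritic cells are rare blood-forming cells that sense viral nucleic acids through the endosomal receptors TLR7 and TLR9 and release type I interferon through IRF7. They develop from progenitors that respond to Flt3L, and they depend on the E protein E2-2, encoded by Tcf4, with Irf8, Spib and Runx2 among the other factors known to act in them. Id2, an inhibitor of E proteins, favours conventional dendritic cells. Several of the identity genes are also used elsewhere: Irf8 in monocyte and conventional dendritic cell progenitors, Spib in B cells and other lymphoid cells, and Bst2 wherever interferon acts.

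Over the 20102 tested probe sets, arrays of 1 genotype correlated by 0.974 to 0.990 and arrays of different genotypes by 0.956 to 0.982. Gata3 itself measured 5.88 ± 0.50 with 1 copy disrupted and 5.93 ± 0.48 with none intact. Its probe set may lie outside the disrupted part, so it does not check the genotypes. Of 15 T-lineage markers with a probe set, 13 stayed under the minimum on all arrays, among them Cd3e, Bcl11b, Ptcra and Il2ra. That minimum, used throughout, is a log2 value of 4 (an intensity of 16), which a probe set had to reach on at least 3 arrays to be tested. Stromal and osteoblast markers varied between arrays of 1 genotype, and the arrays numbered 2 had the lowest level in each, as given below.

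The identity genes did not move as a block. Siglech, Pacsin1 and Irf8 were lower on every Gata3-/- array than on any Gata3+/- array, Spib was higher on every one, Bst2 was lower by a small margin and Ly6d was at the bottom of the scale throughout. Each array read RNA from a whole sorted population, so fewer cells of a type and less RNA per cell cannot be told apart. Genotype values chose these genes, so their differences are given as a description without a test.

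**Figure D1:**
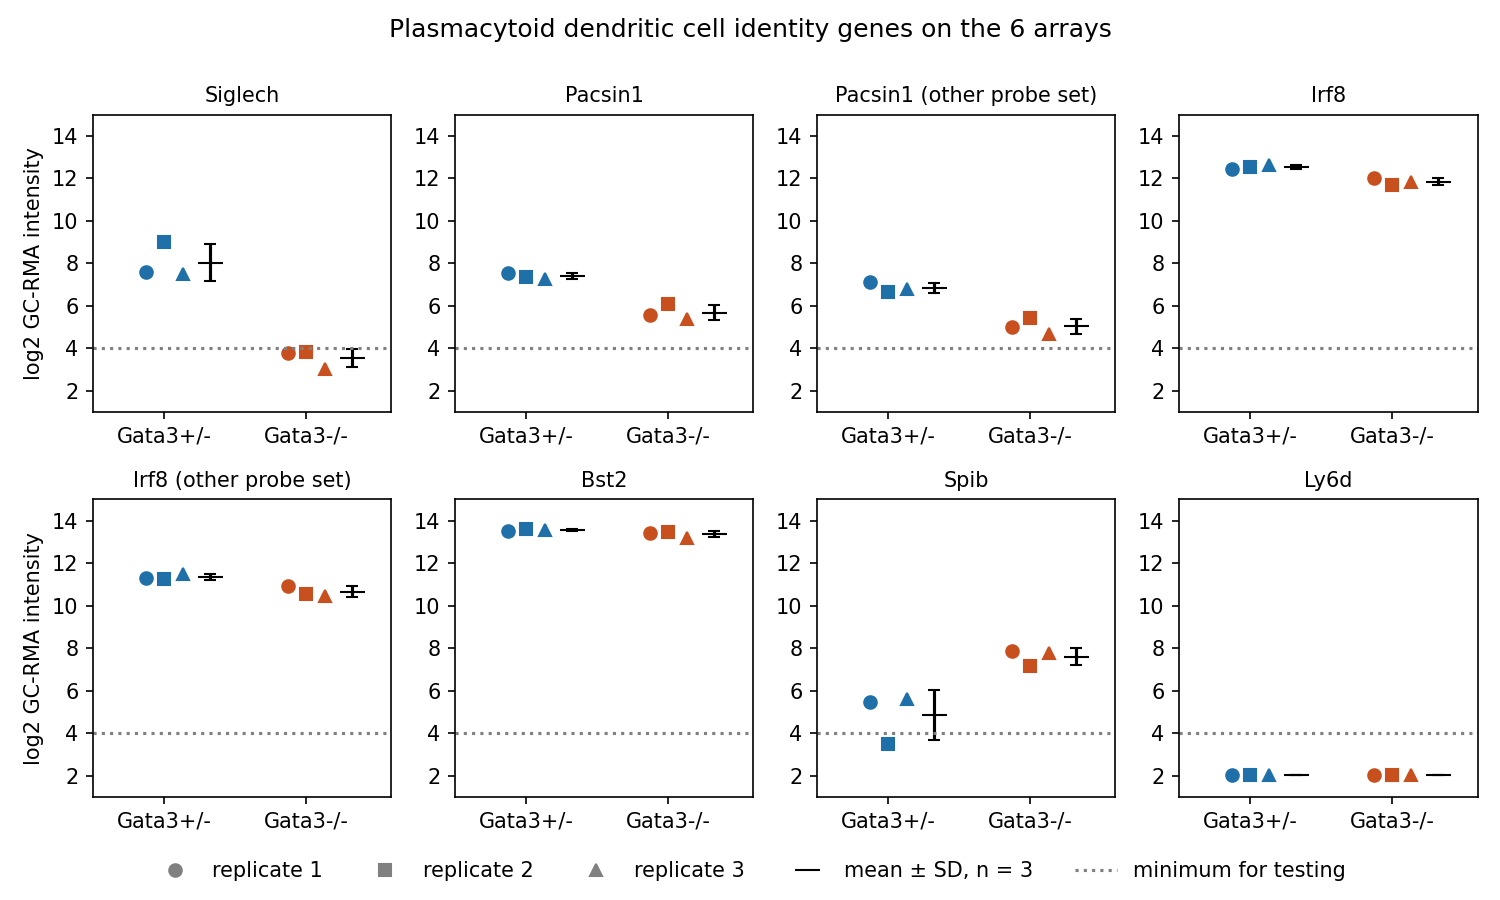
Log2 GC-RMA intensity (vertical axis) of the 8 probe sets of 6 identity genes on each array, by genotype (horizontal axis). Symbols mark the replicate number, black bars the mean ± SD of 3 arrays and the dotted line the minimum of 4. All 3 Gata3-/- values of Siglech lie under that line, Spib lies higher on all 3 Gata3-/- arrays, and Ly6d stays near 2.03 on all 6.

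Among the surface proteins Siglech (probe set 1436131_at), a sialic acid-binding receptor used to identify mouse plasmacytoid dendritic cells, showed the widest separation. Its values were 7.59, 9.02 and 7.50 on Gata3+/- replicates 1, 2 and 3, and 3.76, 3.81 and 3.04 on the Gata3-/- replicates. The lowest Gata3+/- array lay 3.69 log2 units above the highest Gata3-/- array. Since no Gata3-/- array reached the minimum, the difference is a bound, at least 16.4-fold lower, from the Gata3+/- mean of 8.04 ± 0.85 against the minimum. The brightest array was Gata3+/- replicate 2.

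Bst2 (1424921_at) encodes tetherin, the antigen known as PDCA-1, which tethers enveloped virions and is induced by interferon. Its values were 13.51, 13.62 and 13.56 on Gata3+/- and 13.39, 13.46 and 13.19 on Gata3-/- arrays. The genotypes were separated by only 0.05, and the difference was -0.21 (SE 0.10, 95% interval -0.45 to 0.02). Of all 10302 tested genes 43.7% differed by at least as much in one direction or the other.

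Ly6d (1416930_at), a surface antigen of lymphoid progenitors with B-cell or plasmacytoid dendritic cell potential, lay between 2.02 and 2.03 on all 6 arrays. It did not reach the minimum on any array, and no difference could be measured.

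Among the transcription factors Irf8 (1416714_at), an interferon regulatory factor that directs monocytes and dendritic cells, was bright in both genotypes. Its values were 12.41, 12.51 and 12.61 on Gata3+/- and 11.99, 11.69 and 11.85 on Gata3-/- arrays. The genotypes did not overlap, with a difference of -0.67 (SE 0.11, 95% interval -0.93 to -0.41), which is 1.59-fold lower. The second probe set (1448452_at) gave 11.29, 11.26 and 11.50 against 10.94, 10.52 and 10.46, a difference of -0.71 (SE 0.15), again without overlap. Irf8 was far above the minimum on the Gata3-/- arrays, on which Siglech lay under it. Of all tested genes 9.75% differed by at least as much as the brighter Irf8 probe set.

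Spib (1460407_at), which encodes the ETS factor Spi-B, ran the other way. Its values were 5.47, 3.50 and 5.62 on Gata3+/- and 7.87, 7.16 and 7.77 on Gata3-/- arrays. All Gata3-/- arrays lay at least 1.54 above the highest Gata3+/- array, and Gata3+/- replicate 2 was under the minimum. The difference was 2.74 (SE 0.60, 95% interval 1.25 to 4.23), and without both arrays numbered 2 it was 2.28. A difference of that size or more was found in 0.417% of tested genes.

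Pacsin1, an adaptor of membrane trafficking known in neurons and in the interferon response of plasmacytoid dendritic cells to TLR9 ligands, was lower in Gata3-/- arrays on both of its probe sets. Its brighter probe set (1449381_a_at) read 7.54, 7.37 and 7.26 on Gata3+/- and 5.58, 6.07 and 5.39 on Gata3-/- arrays. The difference was -1.71 (SE 0.19, 95% interval -2.18 to -1.23), or 3.27-fold lower, and 1.48% of tested genes differed by as much. The second probe set (1449380_at) gave 7.10, 6.66 and 6.80 against 5.00, 5.41 and 4.69, a difference of -1.82 (SE 0.21). Both probe sets placed every Gata3-/- array above the minimum and below every Gata3+/- array.

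Over the 5 identity genes that could be tested, 3 passed an adjusted p of 0.05 in the limma fit over all probe sets, all 3 lower (Siglech, Pacsin1 and Irf8), where 5.27% of all tested genes passed. The genotypes did not overlap for 5 of 5, against 33.6% of all tested genes. Nothing is read from either count, or from passes in other fits, because the same contrast chose the genes. Siglech also reached the minimum on Gata3+/- arrays only. None of the 3 passed without a filter on dim probe sets or in any fit that left out 1 array, and Spib passed too with values under the minimum set to it. Siglech and Spib both lie on chromosome 7, Irf8 and Bst2 on chromosome 8 and Pacsin1 on chromosome 17. The median difference of the tested genes on these chromosomes was -0.05, -0.06 and -0.04, against -0.02 over all tested genes and 0.33 on chromosome 11.

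The promoters of the oppositely placed pair on chromosome 7, and that of Bst2, are shown for the motifs that dendritic cell factors are known to bind. They are the 250 bases before the annotated start, from RefSeq on GRCm38.p6, at chr7:55767934-55768183 (plus strand) for Siglech, chr7:44532072-44532321 (minus strand) for Spib and chr8:71537473-71537722 (minus strand) for Bst2. Capitals mark every match to a searched motif on either strand.
Siglech: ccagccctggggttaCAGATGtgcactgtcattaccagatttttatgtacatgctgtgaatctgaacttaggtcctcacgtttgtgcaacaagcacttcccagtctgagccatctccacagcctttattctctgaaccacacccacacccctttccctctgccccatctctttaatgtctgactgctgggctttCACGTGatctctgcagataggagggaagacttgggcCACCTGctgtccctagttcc
Spib: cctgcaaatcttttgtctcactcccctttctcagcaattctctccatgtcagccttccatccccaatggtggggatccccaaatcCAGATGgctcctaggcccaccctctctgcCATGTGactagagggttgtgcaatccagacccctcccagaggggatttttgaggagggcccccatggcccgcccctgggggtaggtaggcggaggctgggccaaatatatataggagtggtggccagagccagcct
Bst2: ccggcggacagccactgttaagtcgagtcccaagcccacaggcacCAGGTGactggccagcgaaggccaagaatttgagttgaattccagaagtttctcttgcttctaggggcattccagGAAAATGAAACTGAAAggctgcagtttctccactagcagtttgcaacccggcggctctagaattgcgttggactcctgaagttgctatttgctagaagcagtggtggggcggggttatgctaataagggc

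The capitals in Siglech and Spib are E-boxes (CANNTG), the motif of E proteins that reads the same on both strands, with 3 in Siglech and 2 in Spib. Such a match is common, with 66.2% of 32851 promoter windows of the same length holding one. Bst2 holds 1 E-box and 2 overlapping matches to the interferon response element, GAAA and GAAA parted by any 2 bases, from 130 to 115 bases before its start, a motif held by 2.98% of windows. Windows were listed for 6 of the 7 genes, all but Ly6d. None of them matched the ETS-IRF composite, GGAA and GAAA parted by any 2 bases (2.3% of windows), the ETS core GAGGAA (23.3%) or the GATA motifs AGATAA (9.99%) and TGATAA (7.94%). A match is a description of letters, and its absence says only that those letters are not in this window.

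Beyond the identity genes, 4 other genes of plasmacytoid dendritic cells fell in Gata3-/- arrays and none rose. A list of 32 such genes had 30 with a probe set and 22 tested, of which 4 were lower, 0 were higher and 18 did not pass (limma with Benjamini-Hochberg adjustment), where 2.41% of all tested genes were lower and 2.86% higher. The median difference of the 22 was -0.10. This list and those below were chosen with earlier results of these data known, so their counts are a description only. Nrp1, the neuropilin receptor also used by other cells, fell from 11.11 ± 0.16 to 9.76 ± 0.21 (difference -1.35, SE 0.14, adjusted p = 0.0281), and its other tested probe sets gave -1.73 and -1.73. Sla2, an adaptor that dampens antigen receptor signalling, fell by 0.60 (SE 0.10, adjusted p = 0.0428). Tlr7 and Unc93b1, which passed as well, are described with their pathway. Leaving out any 1 array ended all 4 calls in limma, and 0 were called without a filter on dim probe sets. In the fits without 1 array 8 to 12 of the 22 genes were at an unadjusted p under 0.05, where 2043 to 2484 of all 10302 tested genes were.

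**Figure D2:**
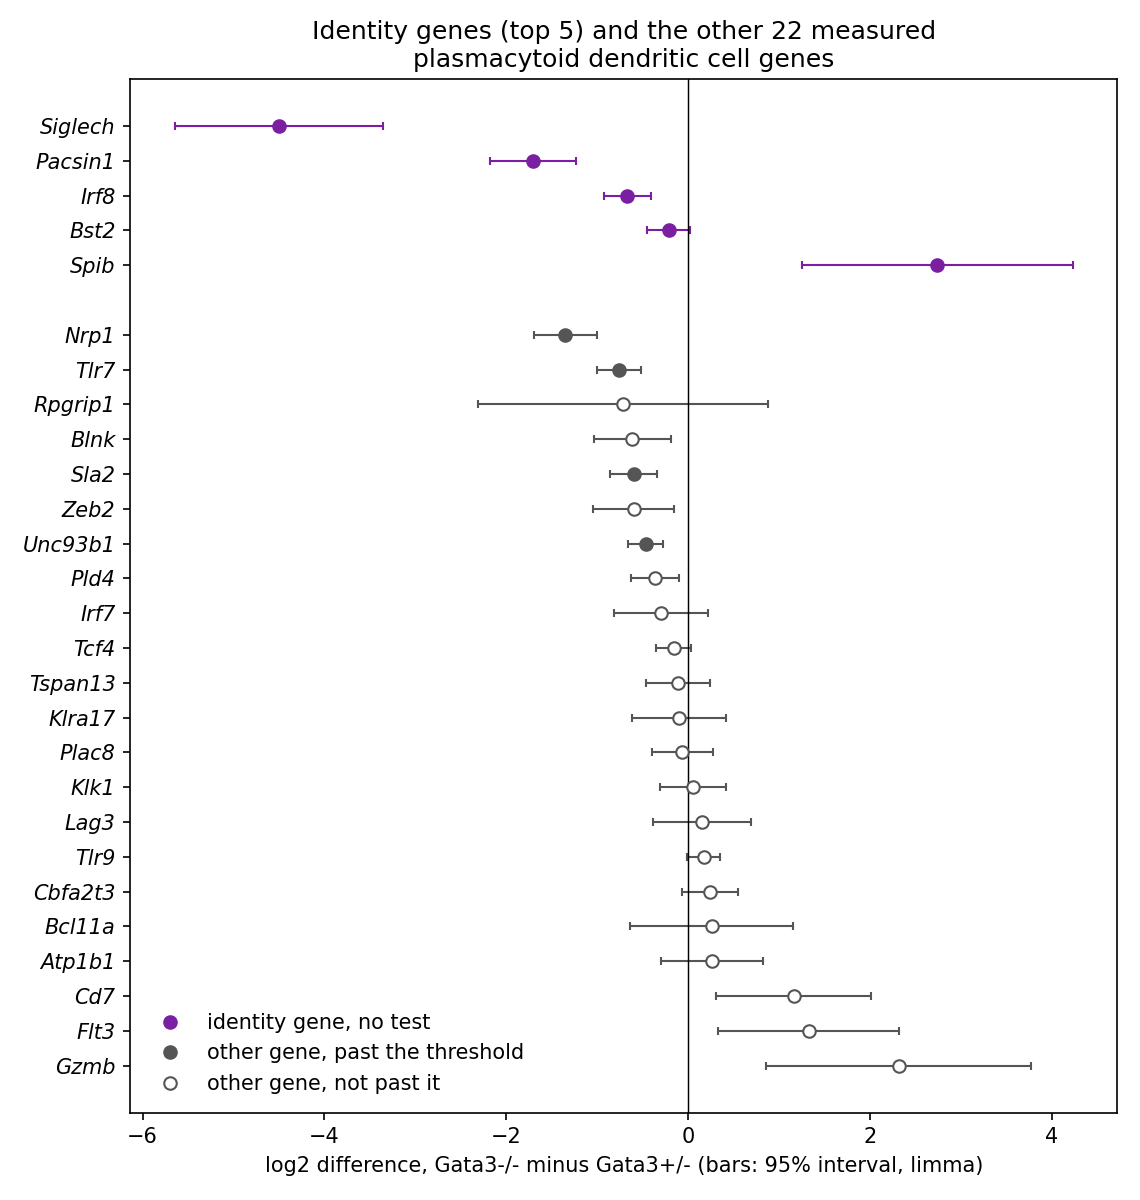
Log2 difference, Gata3-/- minus Gata3+/- (horizontal axis), with 95% intervals from limma for the 5 measurable identity genes (purple) and the 22 other measured plasmacytoid dendritic cell genes (grey, filled where past the adjusted threshold of 0.05). Nrp1, Tlr7, Sla2 and Unc93b1 are the filled grey points, all below 0, and the purple points run from Siglech at -4.50, a value set partly by readings under the minimum, to Spib at 2.74.

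The regulators set above and beside the identity genes did not pass. Tcf4 stood at 10.32 ± 0.05 and 10.16 ± 0.08 (adjusted p = 0.281), and its 5 tested probe sets gave differences from -0.26 to -0.10. Id2 stood at 14.22 ± 0.10 and 14.47 ± 0.15 (adjusted p = 0.227). Zeb2, a repressor needed for plasmacytoid dendritic cells and monocytes, had a difference of -0.60 (SE 0.18, adjusted p = 0.119), and Bcl11a, a zinc finger factor of lymphoid and plasmacytoid cells that lies on chromosome 11, of 0.26 (SE 0.36, adjusted p = 0.725). Other tested probe sets of Bcl11a gave 0.63, 0.68 and 0.49, with limma adjusted p of 0.227, 0.172 and 0.445. Those of Zeb2 gave -0.62 to 0.02, and the one at -0.62 (SE 0.12) came close, with an adjusted p of 0.0535. None of these probe sets was past the threshold. Spi1, the ETS factor PU.1 and closest relative of Spi-B, stood at 12.47 ± 0.15 and 12.36 ± 0.15 (adjusted p = 0.630). None of the 6 E protein and Id genes passed in limma, with 0 at an unadjusted p under 0.05 and differences from -0.37 to 0.26.

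Several other genes of the list stood at the edge of measurement or did not pass. Ccr9, a homing receptor of plasmacytoid dendritic cells, was not tested, and its brightest probe set lay at 3.59 ± 0.02 and 3.58 on average, under the minimum. Another of its probe sets reached the minimum on 1 array, Gata3-/- replicate 1, at 4.55. Cox6a2, Mzb1, Upb1, Lefty1, Havcr1 and Paqr5 stayed under the minimum on all arrays. Positive differences that did not pass included Gzmb, the protease granzyme B, at 2.32 (SE 0.59, adjusted p = 0.0856), and Flt3, the receptor of the added cytokine Flt3L, at 1.32 (SE 0.40, adjusted p = 0.124). Plac8 and Tspan13, bright in both genotypes, had differences of -0.06 and -0.11.

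In the TLR7 and TLR9 pathway 3 of 16 tested genes fell, 0 rose and 13 did not pass, against the same 2.41% and 2.86% of all tested genes. This count is not independent of the one above, since Tlr7 and Unc93b1 are in both lists. Tlr7, the endosomal receptor for single-stranded RNA, read 10.77, 10.89 and 10.68 on Gata3+/- and 9.93, 10.15 and 9.97 on Gata3-/- arrays (difference -0.76, SE 0.10, limma adjusted p = 0.0322). Its other tested probe sets, at -0.57 and -0.34, did not pass. Unc93b1, the chaperone that carries nucleic acid-sensing receptors to endosomes, fell by 0.47 (SE 0.08, adjusted p = 0.0422). Ifnar2, a chain of the type I interferon receptor, fell by 0.53 (SE 0.08, adjusted p = 0.0349), while its other tested probe sets, at -0.61 and -0.70, did not pass (adjusted p = 0.0592 and 0.0557). Tlr7, Unc93b1 and Ifnar2 were each lower on 3 of 3 Gata3-/- arrays than on any Gata3+/- array, as were 16.7% of all tested genes. For genes already called that adds little.

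Tlr9 and Irf7 did not pass. Tlr9, the receptor for unmethylated CpG DNA, stood at 5.69 ± 0.01 and 5.86 ± 0.08 (adjusted p = 0.231), and Irf7, the factor that drives interferon genes, at 12.11 ± 0.23 and 11.81 ± 0.34 (adjusted p = 0.454). Ifnb1, Ifna1, Ifna2, Ifna4 and Ifna5, which encode type I interferons, were under the minimum on all arrays. Without any 1 array no gene of the pathway was called in limma, and 0 were called without a filter on dim probe sets. In the fits without 1 array 3 to 8 of the 16 genes were at an unadjusted p under 0.05, where 2043 to 2484 of all 10302 tested genes were.

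Bst2 can be read beside the other interferon-induced genes. Of 24 tested interferon-stimulated genes 0 passed in limma, with 15 differences positive and 9 negative, and a median of 0.09. At an unadjusted p under 0.05 were 5 of the 24, where 2663 of all 10302 tested genes were. Ifi35 was nearest the threshold at 0.44 (adjusted p = 0.0504), and it was the 1 gene of the list called under the stricter filter and with values under the minimum set to it. The mean level of the list was highest on replicate 2 of each genotype, at 12.34 and 12.52, as was that of Bst2 at 13.62 and 13.46.

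Markers of other cells were read on the same arrays. Of 13 tested conventional dendritic cell markers 1 rose, 0 fell and 12 did not pass, where 2.86% of all tested genes rose and 2.41% fell, and 11 of the 13 differences were positive. Zbtb46, a factor that marks conventional dendritic cells, rose by 1.89 (SE 0.35, adjusted p = 0.0485), while its second tested probe set, at 2.30, did not pass. The factor gene Irf4 had a difference of 2.25 (SE 0.70, limma adjusted p = 0.129), and its second probe set gave 1.10 (adjusted p = 0.0697). Both probe sets of Irf4 were under the minimum on Gata3+/- replicate 2. The 2 negative differences were those of Batf3, a factor gene of another branch, at -0.78 (SE 0.19, adjusted p = 0.0759), and Cadm1, at -0.73 (adjusted p = 0.110). Itgae and Wdfy4, at 0.87 and 0.75, were positive (adjusted p = 0.0719 and 0.0757). Irf4, Batf3, Cadm1, Itgae and Wdfy4 all missed the threshold. The summed intensity of the list was 23831 to 29897 on Gata3+/- and 44479 to 61467 on Gata3-/- arrays. Much of that gap lay in Ccr7, a chemokine receptor of mature dendritic cells that did not pass (adjusted p = 0.108), and without it the sums were 17080 to 22257 and 23569 to 32303. The defining markers Xcr1, Cd209a and Clec10a of conventional dendritic cells were under the minimum on all arrays. Of 11 tested macrophage markers 1 fell, 0 rose and 10 did not pass, against the same shares of all tested genes, and 9 of the 11 differences were negative, where 53.3% were over all tested genes. The Fc receptor gene Fcgr1 fell by 0.70 (SE 0.12, adjusted p = 0.0431), and the lysosomal protein gene Cd68 had a positive difference of 0.53 (adjusted p = 0.0541). With the minimum at 6, and with averaged probe sets, Cd68 passed as higher and Fcgr1 as lower. The calls of Zbtb46 and Fcgr1 were lost without a filter and in each fit that left out 1 array. The summed intensity of the macrophage markers was 107999 to 128753 on Gata3+/- and 80718 to 96416 on Gata3-/- arrays. Such a sum is weighted to the brightest probe sets. The brightest here was C1qb, at 15.29 ± 0.13 on Gata3+/- and 14.86 ± 0.22 on Gata3-/- arrays, which did not pass (limma adjusted p = 0.144). The part of either cell type in the values of Siglech, Pacsin1, Irf8 and Spib was not tested.

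**Figure D3:**
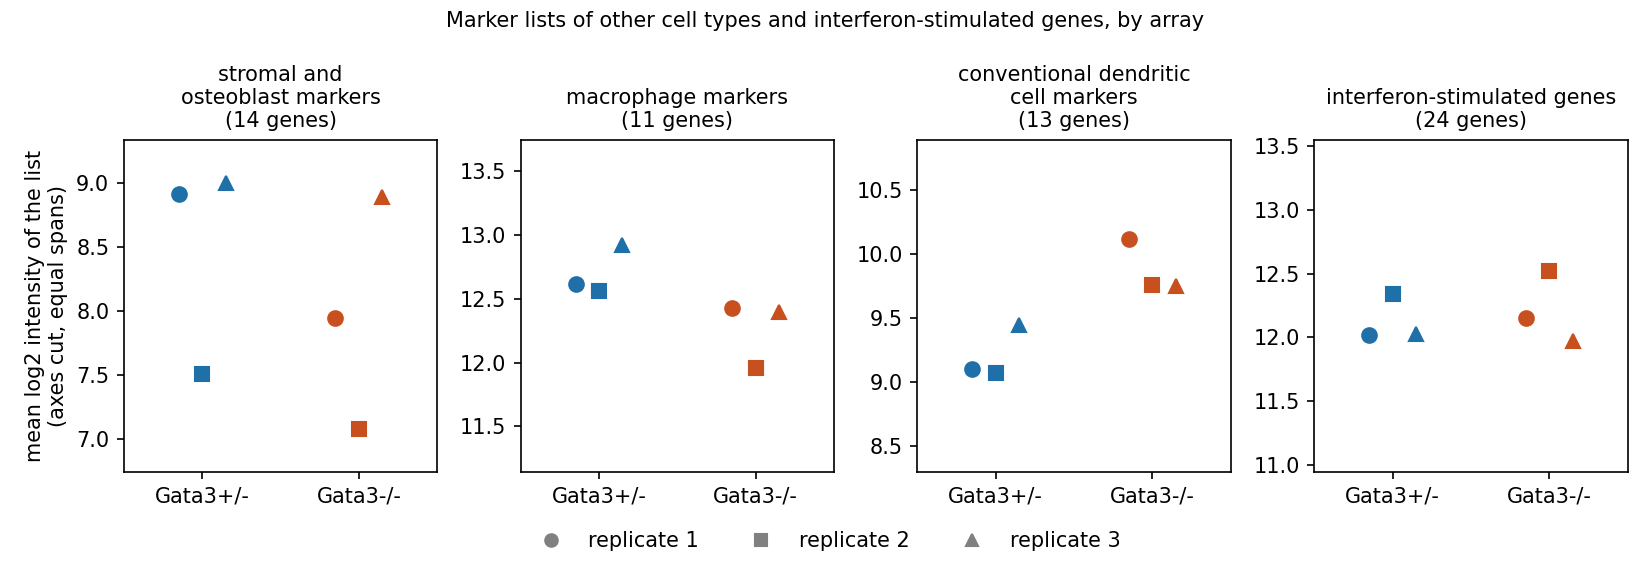
Mean log2 intensity (vertical axes, cut but of equal span) of stromal and osteoblast markers, macrophage markers, conventional dendritic cell markers and interferon-stimulated genes on each array, by genotype (horizontal axis), with symbols for the replicate number. Stromal markers are lowest on the arrays numbered 2 in both genotypes, at 7.51 and 7.08, and the 3 Gata3-/- arrays lie above the Gata3+/- arrays for conventional dendritic cell markers.

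B-lineage markers, read because Spib, Irf8 and Ly6d also serve B cells, were mostly under the minimum, though not all. Of 14 with a probe set 11 stayed under the minimum on all arrays, including Pax5, Cd79a, Vpreb1, Igll1 and Ms4a1. The 3 tested did not pass in limma, with 0 at an unadjusted p under 0.05. Of these Cd79b, at 9.66 on Gata3+/- and 9.31 on Gata3-/- arrays, and Bank1, at 9.88 and 9.91, lay well above the minimum. Ebf1 was dimmer, at 5.17 and 4.84. The 14 tested stromal and osteoblast markers gave 0 calls in limma, with 1 at an unadjusted p under 0.05, a median of -0.59 and 12 negative. Their mean level was 8.92, 7.51 and 9.00 on Gata3+/- and 7.95, 7.08 and 8.90 on Gata3-/- arrays. Spib was likewise lowest on replicate 2 of each genotype, and Siglech was highest on replicate 2 of Gata3+/-. The part of stromal RNA in these values was not tested. Without Gata3+/- replicate 2 Siglech was at least 11.7-fold lower, and without both arrays numbered 2 the differences were -1.91 for Pacsin1, -0.59 for Irf8 and -0.24 for Bst2.

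The genes whose 6 values lay nearest to those of an identity gene were sought for the 3 that spanned at least 1 log2 unit, by the mean absolute difference after centring each gene on its own mean. For Spib the nearest were Gpr132, a G protein-coupled receptor of leukocytes, Serpinb9, an inhibitor of granzyme B, and Sprr2d, a small proline-rich protein of epithelia, at 0.07, 0.07 and 0.08 log2 units. One of the 6 values of Spib was under the minimum, and the low reading on replicate 2 that these genes share with Spib follows from how they were chosen. For Pacsin1 they were the sialyltransferase gene St3gal6, the chemokine receptor gene Ccr2 and the B-cell coreceptor gene Cd72, at 0.16, 0.18 and 0.23. For Siglech they were Slco2b1, an organic anion transporter, the Wnt inhibitor gene Apcdd1 and Flt1, a VEGF receptor. Since 3 of the 6 values of Siglech were under the minimum, as were all Gata3-/- values of Flt1, this choice rests partly on uninformative readings. The computed distances, 0.74, 0.80 and 0.81, were well above those for Spib and Pacsin1, so these genes did not lie close to Siglech.

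**Figure D4:**
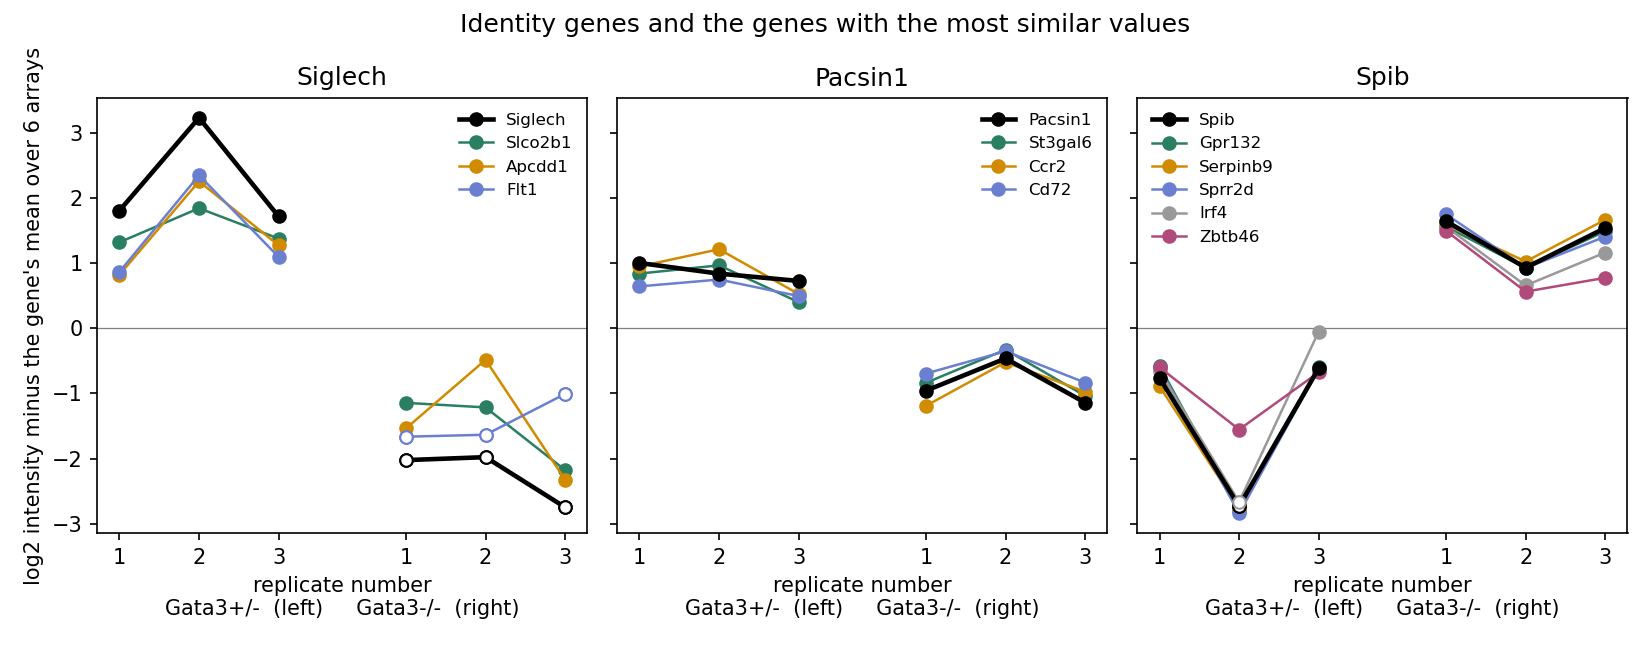
Log2 intensity minus each gene's mean over the 6 arrays (vertical axis), by replicate number within genotype (horizontal axis, Gata3+/- left and Gata3-/- right), for Siglech, Pacsin1 and Spib (black) and the 3 nearest genes of each. Irf4 and Zbtb46 are added beside Spib, open points are readings under the minimum of 4, whose size carries no information, and lines only link the values of 1 gene. Spib and the genes chosen for likeness to it almost coincide.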

How the data were processed

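The authors deposited linear intensities for 45101 probe sets on 6 Affymetrix arrays, made with GC-RMA per the labels, and the submitters' processing notes name GCOS. No version, setting or genome build is stated in these sources. GC-RMA compresses low values towards a floor, which blurs differences there. The number of arrays limits the precision.

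Here the log2 of each intensity was taken, without further normalization, and 64 control probe sets were left out. Probe sets with a log2 value of at least 4 on at least 3 arrays were tested with limma 3.58.1 in R 4.3.3 (lmFit and eBayes, two-sided), with Benjamini-Hochberg adjustment over all 20102 and a threshold of 0.05. Symbols came from the platform annotation (34958 probe sets with 1 symbol, 932 with several, 9211 not listed), and chromosomes and promoters from RefSeq tables of GRCm38.p6. On simulated data for this comparison over 20102 probe sets, 54% of changes of 1 log2 unit and 84% of changes of 2 were recovered, with 9 false calls among 147. The simulated noise was independent between probe sets, while stromal markers on these arrays varied together, so these rates may not hold for the real data.

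The members and lists were chosen with earlier results of these data known. All members are named, with up to 4 called genes per list, 11 fixed regulators and the 3 nearest genes of each member spanning 1 log2 unit. Other genes are examples chosen after their values were seen. Alternatives were the filter, quantile normalization, median centring, the replicate block, averaging probe sets, a floor at the minimum and leaving out arrays. The fit without both arrays numbered 2 was added after seeing the data.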

Additional observations from a re-analysis of the deposited data

How the results depend on the processing

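The 543 genes called in all became 98 without a filter (41 higher and 57 lower), where 3007 of 18193 genes were at an unadjusted p under 0.05 in limma. They became 298 with the replicate block, of which 181 were among the 543, and 0 to 4 when arrays were left out. In the fits with arrays left out 2037 to 2484 of 10302 genes were at an unadjusted p under 0.05 in limma. The 4 other plasmacytoid dendritic cell genes called became 0 without a filter (12 at an unadjusted p under 0.05 in limma) and 0 in each fit with arrays left out (7 to 12). The 3 pathway genes became 0 without a filter (6), 1 with the replicate block and 0 with arrays left out (3 to 8). The unfiltered fit tests more probe sets, the fits without arrays hold fewer arrays, and the cause of the loss under the block was not tested. These 3 counts stayed within 1.5 times with the minimum at 6, quantile normalization, median centring, averaging and the floor, and that of the other plasmacytoid dendritic cell genes also with the block (3, of which 1 higher, 2 shared). Differences of the 5 measurable identity genes kept their sign under all 14 alternatives, with Siglech at least 11.7-fold to 19.8-fold lower when a Gata3+/- array was left out and ranges of -1.91 to -1.57 for Pacsin1, -0.74 to -0.59 for Irf8, -0.27 to -0.13 for Bst2 and 2.06 to 3.12 for Spib, which carries little weight because these genes were chosen on the same arrays. With the replicate block Irf8 no longer passed (limma adjusted p = 0.0669) and Spib did (0.0478), as it did with the floor (0.0471). Nothing is read from these passes, because the same contrast chose the genes. The replicate numbers were not taken as pairs, because same-numbered arrays deviated from their genotype's mean with correlations of 0.005 (number 1), 0.695 (number 2) and 0.429 (number 3), and Gata3+/- replicate 1 correlated better with Gata3-/- replicate 3 (0.424).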
